A study of Gallus gallus with 3 samples.

Results

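The oxidative phosphorylation genes were followed through 3 stages of the developing chicken foot. They were taken by name: every gene whose symbol in the marker lists of the study begins with MT-, NDUF, UQCR, SDH, ATP5 or COX and a digit, or equals ND1, COX3 or ATP6, provided that it was on none of the co-expression module lists that were held. This gave 76 of the 11442 genes in the 3 tables, 10 of them encoded by the mitochondrial genome and 66 by the nucleus, and all 76 were counted at every stage. By subunit, the nuclear genes comprised 28 genes of complex I, 3 of complex II, 8 of complex III, 8 of complex IV, 12 of complex V and 7 others, namely the assembly factors NDUFAF1, NDUFAF2, NDUFAF4, NDUFAF8, SDHAF2 and COX17, and ATP5SL.

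Oxidative phosphorylation is the last step of respiration. Complexes I to IV of the inner mitochondrial membrane pass electrons to oxygen, complexes I, III and IV pump protons, and complex V, the ATP synthase, makes ATP from the returning protons. Complex II is wholly nuclear encoded, whereas the other complexes need products of both genomes, made by separate transcription machineries. Cartilage is a tissue without blood vessels that is known to draw much of its ATP from glycolysis.

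Single-cell RNA was counted in hindlimb cells from chicken embryos at Hamburger-Hamilton stages HH25 (whole autopod, 10x v2), HH29 (digits 3 and 4, Drop-Seq, 3 technical replicates) and HH31 (tip of digit 4, 10x v2). No treatment, mutation or strain is named, and every group is a set of cells within 1 of these libraries. Each stage is 1 library, so that stage cannot be told apart from platform and dissection, no test between groups of cells is given, and all 95% intervals cover counting error only. Groups are the fine sub-clusters of the authors, numbered within a stage (HH29-13 is sub-cluster 13 of HH29) and called by the authors' names. After filtering, 5938, 6806 and 4796 cells held 13778575, 23846769 and 13281515 unique molecular identifiers (UMIs), with a median of 2046, 2946 and 2482 UMIs per cell. Of the 26 pairs of a cell type marker and a stage that could be checked, all 26 had the marker highest in a sub-cluster of that name. Of the 23 markers listed, 8 could not be found, among them MYOD1, MYF5, DES and ACTC1 of muscle. The names of muscle, joint, connective tissue, interdigit and mesenchymal sub-clusters were therefore not checked in this way. A name that the markers went against is that of HH31-6, which the authors call skin. There the mesenchymal gene PRRX1 stood at 1840 CPM (UMIs per 1000000 UMIs) and the skin genes EPCAM and KRT19 at 13.3 and 1.78 CPM, against 58.7, 278 and 492 CPM in the skin of HH31-5, and it is called sub-cluster 6 here. HH25 and HH31 shared 48 cell barcodes, and pairs of HH29 replicates shared 0 to 3.

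The choice of members bears on what can be read from their levels. They had to be on a marker list, and 54 of the 76 were on that of HH31-9 (cycling cells), 42 on HH31-6, 34 on HH29-10 (endothelium) and 27 on HH25-1 (mesenchyme). The levels in these 4 sub-clusters are therefore given as a description. HH25-1 and HH31-9 also belong to the mesenchyme with which skeletal cells are compared below, and 25 and 52 of the 66 nuclear genes were on their lists, so that a lower value in skeletal cells than in mesenchyme at these stages is in part what chose the members. In the same way 4 nuclear genes (COX4I1 on the list of HH25-4, and COX7A2, COX17 and ATP5G3 on that of HH29-3) and 4 mitochondrial genes (ND1, MT-CYB and COX3 on HH25-4, and ATP6 on HH31-2) were on lists of skeletal sub-clusters. COX3, MT-CO2 and MT-ND4 were on the list of interdigit 4 of HH31 (HH31-4), and MT-ND2 on that of blood (HH25-3). The list of HH31-7, also part of the mesenchyme, named MT-CYB, MT-ND4 and 6 nuclear genes. That of HH31-9 named MT-CYB and MT-ND2, and that of HH25-1 named MT-CO1 and MT-CO2. Values of these genes against mesenchyme at those stages are in part what chose them too. The lists of the sub-clusters HH29-11 to HH29-18 and HH31-11 were not used, so no gene became a member through a high value there. Their cells were still in the rest of the sample with which the listed sub-clusters were compared. Low values there could therefore help to choose members.

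Over the libraries HH25, HH29 and HH31, in this order, the mitochondrial genes together took 6.19%, 3.27% and 5.77% of all UMIs. The nuclear genes took 4.10%, 3.04% and 2.98%. The mitochondrial share was thus lowest in the Drop-Seq library, and the nuclear share was highest at HH25. Ribosomal protein genes took 35.5%, 18.02% and 43.4% of the UMIs, so that a share of all UMIs is not on the same footing between libraries. With the 70 ribosomal protein genes and 4 haemoglobin genes left out of the total, the nuclear genes took 6.37%, 3.71% and 5.27%, and the mitochondrial genes 9.61%, 3.99% and 10.2%. The 3 technical replicates of HH29 gave mitochondrial shares of 2.95%, 3.43% and 3.55% and nuclear shares of 3.00%, 2.92% and 3.33%. Replicate 1 was the lowest in the mitochondrial and replicate 3 the highest in both shares, and sub-clusters were therefore compared within replicates too.

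Among the nuclear genes, single members differed between libraries by far more than their sum. NDUFAB1, the acyl carrier protein of complex I, stood at 53.9, 198 and 43.1 CPM in HH25, HH29 and HH31. COX5A, a subunit of cytochrome c oxidase, stood at 165, 457 and 161 CPM. COX5B, another subunit of the same enzyme, went the other way, with 107, 6.88 and 184 CPM. ATP5SL followed COX5B with 75.04, 1.93 and 66.9 CPM, which at HH29 was 46 UMIs in 6806 cells. In all of these genes HH29 lay outside the range of the 2 10x libraries, which themselves differed in COX5B by 0.78 on the log2 scale, and no order in developmental time can be read from them. Over the 66 nuclear genes, HH29 was at least 2-fold below the geometric mean of HH25 and HH31 in 4 genes and at least 2-fold above it in 8, beside 6.51% and 41.5% of 8252 genes, whose median log2 ratio was 0.80 where that of the members was -0.16. Between the 2 10x libraries, 59 of the 66 nuclear genes were lower at HH31 than at HH25 and 7 were higher, with a median log2 ratio of -0.40, and 2 genes were at least 2-fold lower. Of all 8252 genes 63.3% were lower and 4.37% at least 2-fold lower, with a median of -0.18. The part of the larger ribosomal protein share at HH31 in this shift was not tested.

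**Figure D1:**
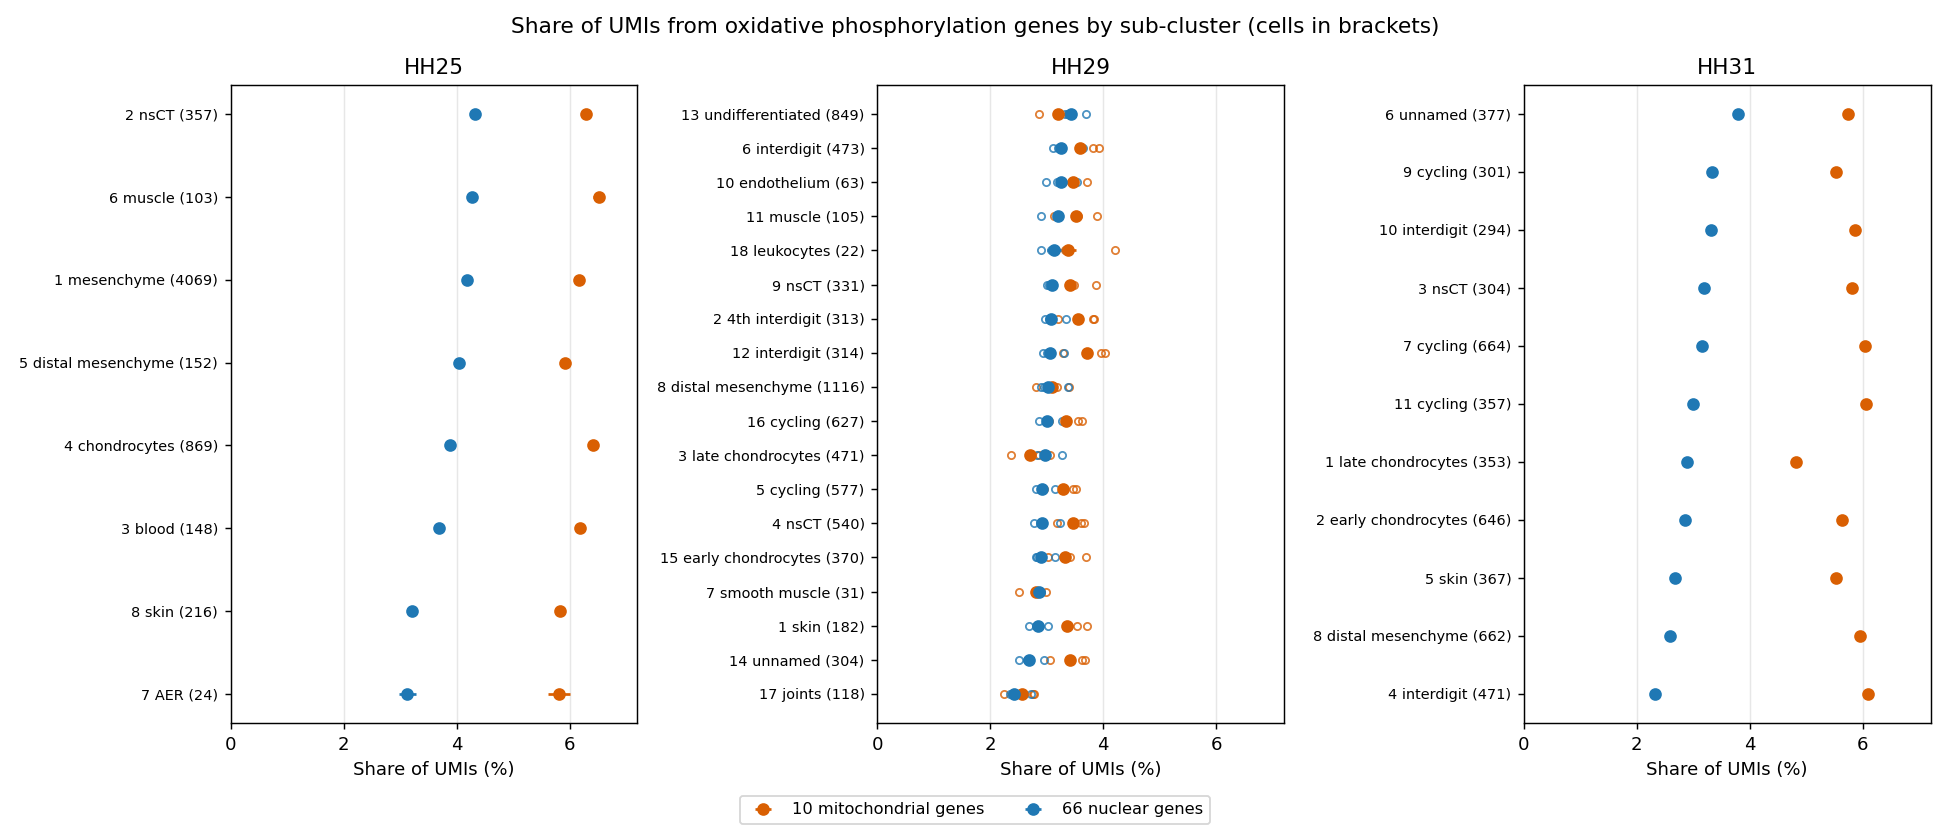
Share of all UMIs (x axis, %) taken by the 10 mitochondrial genes (orange) and the 66 nuclear genes (blue) in each sub-cluster, with its cell number in brackets, sorted by the nuclear share. Bars are 95% Poisson intervals, mostly smaller than the points, and open circles are the 3 technical replicates of HH29. The nuclear share runs from 2.33% in interdigit 4 to 3.79% in sub-cluster 6 at HH31, whereas the mitochondrial share of these 2 is 6.10% and 5.73%.

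The first question was which cell populations devote more of their transcripts to these genes. Over the sub-clusters of at least 100 cells the nuclear share varied 1.35-fold within HH25, 1.41-fold within HH29 and 1.63-fold within HH31. At HH25 it was highest in the non-skeletal connective tissue (nsCT) of HH25-2, at 4.32% (4.27 to 4.36), followed by muscle with 4.27% (4.19 to 4.35), and these 2 intervals overlap. It was lowest in skin, at 3.21% (3.16 to 3.25), and the 24 cells of the apical ectodermal ridge (AER), the other ectodermal population, had 3.12% (2.98 to 3.27). At HH29 the undifferentiated mesenchyme HH29-13 was highest with 3.43% (3.41 to 3.45) and the joint cells HH29-17 were lowest with 2.43% (2.38 to 2.48). At HH31 sub-cluster 6 had 3.79% (3.76 to 3.83) and interdigit 4 had 2.33% (2.301 to 2.356).

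At HH29 the highest and the lowest sub-cluster were the same in each technical replicate. They were picked from the same replicates pooled, so these values show the spread and are no separate support. HH29-13 had nuclear shares of 3.38%, 3.33% and 3.69% in replicates 1, 2 and 3, and was the highest of the 15 larger sub-clusters in each. HH29-17 had 2.39%, 2.34% and 2.73% and was the lowest in each, with sub-cluster 14 (2.64%, 2.51% and 2.95%) next to it in each. Each replicate gave 18.2 to 48.4% of the cells of every HH29 sub-cluster, so that none was made of 1 replicate.

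The cells of the extreme sub-clusters were spread widely, and only their ranges from the 25th to the 75th percentile are compared here. These sub-clusters were picked by this same share. The distance between their cells is therefore a description and no separate support. From the 25th to the 75th percentile of cells, the nuclear share ran from 3.13% to 3.78% in HH29-13 and from 2.12% to 2.70% in HH29-17, without overlap. Interdigit 4 and sub-cluster 6 of HH31 spanned 1.98 to 2.57% and 3.41 to 4.17%. Skin and nsCT of HH25 spanned 2.65 to 3.57% and 3.85 to 4.75%.

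The ribosomal protein share and, at HH31, the depth moved with the nuclear share. At HH31 the nuclear share across the 11 sub-clusters had a Pearson correlation of -0.82 with the ribosomal protein share and of 0.71 with the median UMIs per cell. The correlation with the median UMIs was 0.22 at HH25 and 0.12 at HH29. The points share 1 library and 1 total, and the correlations are descriptions. At HH29 the correlation with the ribosomal protein share was -0.40 over 15 sub-clusters and at HH25 -0.32 over 7. With ribosomal protein and haemoglobin genes out of the total, the same sub-clusters stayed highest and lowest at each stage, and the folds became 1.28, 1.36 and 1.32. By depth, the nuclear share at HH31 went from 2.70% in the 1197 cells with the fewest UMIs to 3.12% in the 1199 with the most. In the same comparison it went from 3.97% to 4.15% at HH25 and from 3.08% to 2.99% at HH29. The mitochondrial share was lower in the deeper cells of each library, with 6.78% and 5.80% for HH25, 3.45% and 3.15% for HH29, and 6.57% and 5.29% for HH31.

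The mitochondrial share followed the nuclear share loosely across sub-clusters at HH25 and HH29 and not at HH31, with Pearson correlations of 0.61, 0.48 and -0.09 over 7, 15 and 11 sub-clusters of the 3 stages in turn. At HH25 it ran from 5.84% (5.77 to 5.90) in skin to 6.51% (6.41 to 6.61) in muscle, and outside ribosomal protein and haemoglobin genes that difference all but vanished, with a log2 ratio of 0.01 in place of 0.16. At HH29 it was lowest in joint cells, with 2.56% (2.51 to 2.62), and then in late chondrocytes with 2.70% (2.68 to 2.73), and highest in interdigit 12 with 3.72% (3.68 to 3.76). These 3 sub-clusters held the same places in each of the 3 replicates: joint cells had 2.25%, 2.76% and 2.77%, late chondrocytes 2.36%, 2.86% and 3.05%, and interdigit 12 3.30%, 3.96% and 4.03%. These sub-clusters too were picked from the replicates pooled, so the values show the spread and are no separate support. At HH31 late chondrocytes were again lowest, with 4.82% (4.78 to 4.87), and interdigit 4 was highest with 6.10% (6.05 to 6.14). Interdigit 4 thus had the highest mitochondrial and the lowest nuclear share of its stage, and its UMIs from mitochondrial genes were 2.62 times those from nuclear genes, against 1.51 times in sub-cluster 6. COX3, MT-CO2 and MT-ND4 were on the list of interdigit 4 itself. The lists of HH31-9 and HH31-6 named 52 and 40 of the nuclear genes. Both shares of interdigit 4 and their ratio are therefore in part what chose the members. At HH29 the ratio of mitochondrial to nuclear UMIs lay between 0.91 in late chondrocytes and 1.27 in sub-cluster 14. Cells with a mitochondrial share over 10% had been removed and the clusters were built after that share was regressed out, and both steps narrow what could be seen here.

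Set against the rest of its library, each extreme sub-cluster showed how many single members took part. A gene was counted as higher when its CPM was at least 25% above that of the other group and as lower when it was at least 20% below, among genes with at least 25 UMIs expected in the smaller group. In HH29-13, 13 of 64 nuclear genes were higher and 0 lower, where 8.89% of all 7152 genes were higher and 22.2% lower, and the median log2 ratio was 0.22 for the members and -0.04 for all genes. In joint cells 0 were higher and 30 lower, where 18.3% of 2519 genes were higher and 30.3% lower, with medians of -0.30 and -0.10. HH31-6 had 44 of 66 higher and 0 lower beside 41.2% and 8.12% of 3708 genes, but 40 of the 66 nuclear genes were members through the marker list of this same sub-cluster, so its count supports nothing. In interdigit 4 of HH31, 0 were higher and 44 lower beside 9.83% and 43.8% of 3600 genes, with medians of -0.41 and -0.26. In skin at HH25 2 were higher and 36 of 65 lower beside 15.8% and 38.4% of 2303 genes. In nsCT at HH25 1 was higher and 3 were lower beside 8.64% and 22.9% of 3031 genes, although its median was 0.13 for the members and -0.07 for all genes. These sub-clusters were picked by the summed share of the same genes, so the counts are a description and no separate support. Few genes of nsCT passed the limit. For interdigit 4 the rest of the library held HH31-9 and HH31-6, whose lists named 52 and 40 of the 66 nuclear genes. For skin and nsCT it held HH25-1, whose list named 25. The lower counts in these sub-clusters are therefore in part what chose the members, and nothing further is read from them.

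Next, skeletal cells were compared with the proliferating and undifferentiated mesenchyme of the same stage, to ask whether these genes differ where cartilage forms. Skeletal cells were the chondrocytes of HH25-4, the late and early chondrocytes and joint cells of HH29-3, HH29-15 and HH29-17, and the late and early chondrocytes of HH31-1 and HH31-2, with 869, 959 and 999 cells. Mesenchyme was HH25-1, the cycling and undifferentiated cells of HH29-5, HH29-13 and HH29-16, and the cycling cells of HH31-7, HH31-9 and HH31-11, with 4069, 2053 and 1322 cells. In skeletal cells and mesenchyme the nuclear genes took 3.89% and 4.19% of UMIs for HH25, 2.88% and 3.15% for HH29, and 2.87% and 3.15% for HH31. The log2 ratios were -0.11 (-0.12 to -0.10), -0.13 (-0.14 to -0.12) and -0.13 (-0.15 to -0.12). Replicates 1, 2 and 3 of HH29 gave -0.13, -0.13 and -0.10.

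These small differences rested on the total they were taken from. Skeletal cells had more ribosomal protein UMIs, at 39.4% against 34.5%, 18.7% against 16.7% and 47.0% against 38.9% in the 3 stages in turn. Without ribosomal protein and haemoglobin genes in the total, every log2 ratio is larger by 0.11 for HH25, 0.04 for HH29 and 0.21 for HH31. The nuclear ratio then became 0.00 (-0.01 to 0.01) at HH25 and 0.07 (0.06 to 0.08) at HH31, and stayed at -0.09 (-0.10 to -0.08) at HH29. A gene with a log2 ratio between 0 and the negative of that shift changes direction with the total. Among the values given below this applies, for example, at HH25 to COX17, SDHB, MT-ND4, MT-CO2 and the sum of complex II, at HH29 to COX6A1 and the sum of complex IV, and at HH31 to UQCRH, NDUFS7, COX6A1, ND1, COX3, MT-CO1, ATP6, ND6, the sums of complexes I and V and the nuclear genes in early and late chondrocytes, while MT-CO2 lies at the edge of the shift at HH31.

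Read against all genes, the median of the nuclear members lay above that of all genes at HH25 and HH31 and below it at HH29. The members' median log2 ratio was -0.14 at HH25, beside -0.19 over all 4803 genes tested, and -0.17 at HH31, beside -0.30 over 5587. At HH29 it was -0.14, beside -0.05 over 7533 genes. At HH25 1 of 66 nuclear genes was higher and 17 were lower, where 12.6% of all genes were higher and 38.8% lower. At HH29 1 of 64 was higher and 8 were lower beside 19.3% and 21.8%, and at HH31 1 of 66 was higher and 19 were lower beside 11.7% and 47.5%. The members past the limit were a smaller share than among all genes at each stage, both downward and upward. All genes include many that are sparser than most members, and sparse genes pass the limit more often by counting error. No share of all genes at like counts is given, and the part of counting error was not tested. Nothing about the members is therefore read from this difference. The same holds for the other counts set beside all genes. Without ribosomal protein and haemoglobin genes in the total, 17.9% of all genes were higher and 28.9% lower at HH25, with 6 members higher and 10 lower. The same total gave 20.2% and 29.8% of all genes at HH31, with 3 members higher and 5 lower, and 21.2% and 19.6% at HH29, with 1 and 6.

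**Figure D2:**
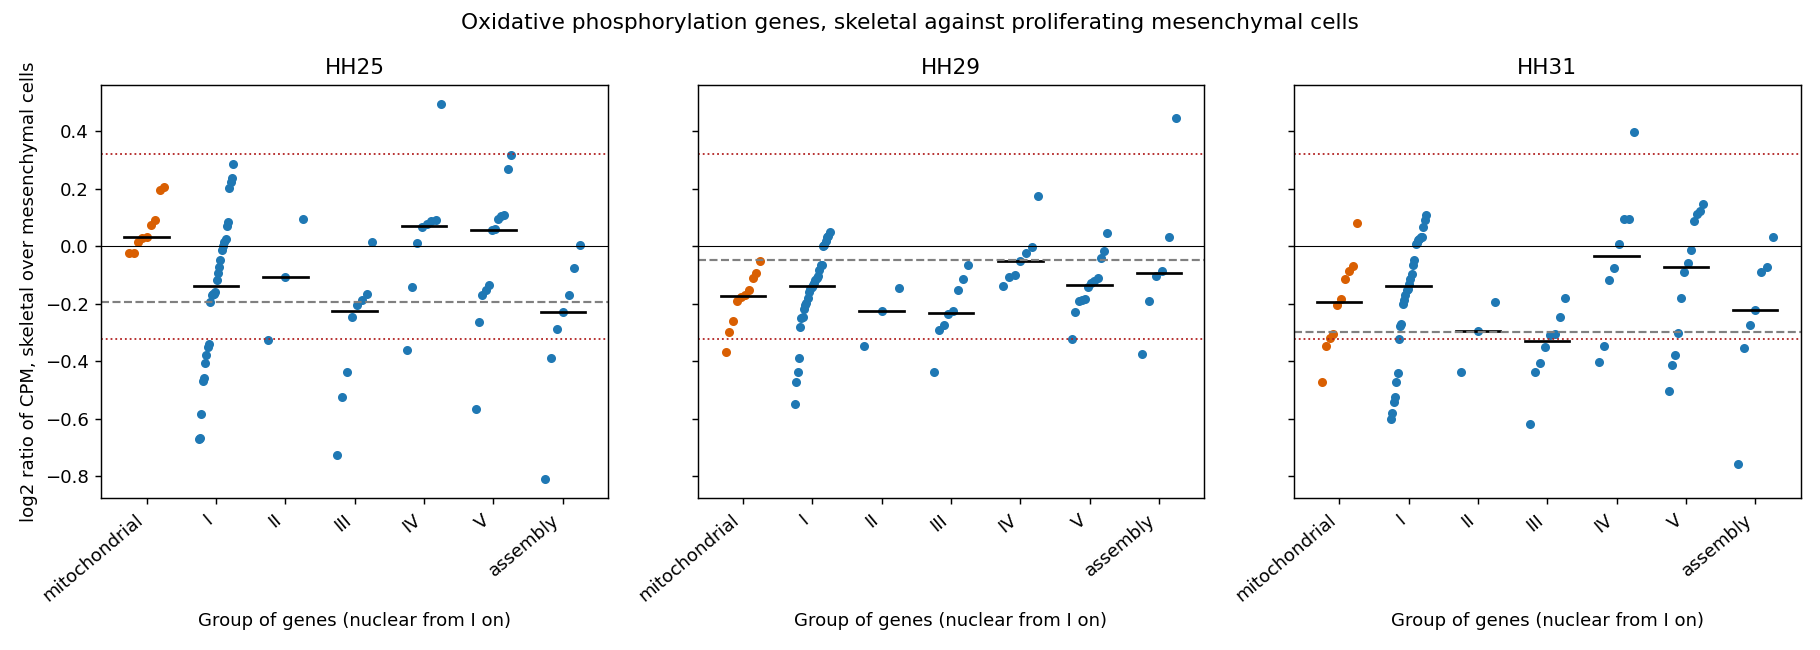
Log2 ratio of CPM in skeletal over mesenchymal cells (y axis) for each gene tested, with mitochondrial genes in orange, nuclear genes in blue by complex (I to V) and assembly factors with ATP5SL last; each point is 1 gene. Black bars are medians of a group, the dashed grey line is the median of all genes tested (-0.19, -0.05 and -0.30), and dotted red lines mark the limits for a higher or a lower gene. Complex III lies at medians of -0.23, -0.23 and -0.33, complex IV at 0.07, -0.05 and -0.03.

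The complexes differed among themselves. Complex III, the cytochrome bc1 complex, had the most negative sum of complexes I to V at HH25, HH29 and HH31, with log2 ratios of -0.40 (-0.44 to -0.36), -0.23 (-0.27 to -0.20) and -0.33 (-0.37 to -0.28). Complex IV, cytochrome c oxidase, was the highest of the 5 each time, with 0.10 (0.08 to 0.13), -0.03 (-0.06 to -0.01) and 0.01 (-0.02 to 0.04). Complex I had -0.13, -0.14 and -0.15, and complex V -0.12, -0.14 and -0.17. The 3 genes of complex II, succinate dehydrogenase, had -0.08, -0.22 and -0.28, and their intervals at HH29 and HH31 overlap those of complex III. The gap between complexes III and IV is a difference within the same cells and does not depend on the total. The choice of members does bear on it. UQCR10, UQCR11, UQCRH and UQCRQ were on the list of HH25-1, as were COX6A1 and COX7C. COX4I1 was on that of the HH25 chondrocytes and COX7A2 on that of HH29-3. The list of HH31-9 named all complex III genes but UQCRC1, and of complex IV COX5B, COX6A1, COX6B1, COX7A2 and COX7B. The gap is therefore in part what chose the members.

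At HH25 the sum of complex III (-0.40) lay below the median of its 8 genes (-0.23). Sum and median were alike at HH29 (both -0.23) and at HH31 (both -0.33). UQCR10, a small subunit of that complex, had 1021 CPM in skeletal cells and 1690 CPM in mesenchyme of HH25, 556 and 651 CPM in those of HH29, and 615 and 833 CPM in those of HH31. Its log2 ratios were -0.73 (-0.80 to -0.66), -0.23 (-0.31 to -0.15) and -0.44 (-0.53 to -0.35). UQCRH, the hinge protein, had, in skeletal cells and mesenchyme, 1375 and 1566 CPM, 432 and 585 CPM, and 845 and 957 CPM in the 3 stages in turn. Its ratio was lowest at HH29, with -0.44 (-0.53 to -0.35). UQCRFS1, the Rieske iron-sulfur protein, had 154 CPM in skeletal cells and 177 in mesenchyme, then 305 and 373, then 104 and 159, and its log2 ratio at HH31 was -0.62 (-0.83 to -0.41). All 8 complex III genes were lower in skeletal cells at HH29 and HH31, by any amount and with all UMIs as the total, and 7 of the 8 at HH25. The median of all genes was also below 0, with -0.19, -0.05 and -0.30 at HH25, HH29 and HH31. The share of all genes lower by any amount is not given for each stage, so nothing is read from these counts.

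In complex I the lowest ratios belonged mostly to a few accessory subunits, with the core subunit NDUFS7 among them at HH29. NDUFA8 had 427 CPM in skeletal cells and 587 in mesenchyme, then 388 and 526, then 243 and 368, with log2 ratios of -0.46 (-0.57 to -0.35), -0.44 (-0.53 to -0.35) and -0.60 (-0.74 to -0.47). NDUFB8 had 81.3 and 122 CPM, 117 and 171 CPM, and 73.5 and 99.7 CPM, with ratios of -0.58, -0.55 and -0.44. NDUFAB1 had ratios of -0.67 (-1.06 to -0.29), -0.39 (-0.53 to -0.25) and -0.58 (-0.94 to -0.23), the wide intervals coming from 65 and 96 skeletal UMIs at HH25 and HH31. These 3 genes, together with SDHA, the catalytic subunit of succinate dehydrogenase, passed the limit downward at every stage, and they were the 4 of 64 genes tested at all stages for which this held, beside 11.8% of all genes. NDUFA8 and NDUFB8 were on the list of HH25-1, and NDUFA8 and SDHA on that of HH31-9. Both sub-clusters are part of the mesenchyme here, so the low ratios of these genes at those stages are in part what chose them. SDHA had ratios of -0.32, -0.35 and -0.44. NDUFAF1, an assembly factor of complex I, had the lowest ratio of HH25, with 92.3 against 162 CPM and -0.81 (-1.05 to -0.58), and NDUFAF4, another, that of HH31, with 16.5 against 27.9 CPM and -0.76 (-1.30 to -0.24). NDUFA5 was low at HH25, with 269 against 427 CPM (-0.67), and level at HH29, with 244 CPM in both groups (0.00). NDUFV3 had -0.41, -0.15 and -0.54. NDUFA11, the complex I gene with the most UMIs, had 1122 and 1419 CPM, 567 and 609 CPM, and 687 and 860 CPM. NDUFAF1, NDUFA5, NDUFV3 and NDUFA11 were on the list of HH25-1 as well. NDUFA5, NDUFV3 and NDUFA11 were also on that of HH31-9, and NDUFAF1 on that of HH31-7. Low ratios of these genes at HH25 and HH31 are therefore likewise in part what chose them. NDUFS7, a core subunit, was low at HH29 alone among the stages, with 221 against 307 CPM (-0.47), and had 0.02 at HH25 and -0.07 at HH31.

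Within each replicate of HH29 the 5 lowest genes of that stage were below 0. They were picked from the same replicates pooled, so these values show the spread and are no separate support. NDUFB8 had log2 ratios of -0.62, -0.54 and -0.42 in replicates 1, 2 and 3, NDUFS7 -0.49, -0.41 and -0.53, and NDUFA8 -0.39, -0.49 and -0.41. UQCRH had -0.45, -0.35 and -0.57 and NDUFAB1 -0.33, -0.42 and -0.40. The spread between replicates was thus smaller than the distance from 0 in each of these genes.

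Some genes were higher in skeletal cells. COX4I1, a regulatory subunit of cytochrome c oxidase, a member through the list of these HH25 chondrocytes, was the 1 nuclear gene past the limit upward at HH25, with 1248 CPM against 885 and a log2 ratio of 0.50 (0.43 to 0.56), and again at HH31, with 826 against 627 CPM and 0.40 (0.31 to 0.48). At HH29 it had 707 and 733 CPM, a ratio of -0.05 (-0.12 to 0.02). COX17, the copper chaperone of the same enzyme and on the list of the late chondrocytes of HH29, was the 1 such gene of HH29, with 144 against 105 CPM and 0.45 (0.28 to 0.62), and its replicates gave 0.46, 0.38 and 0.55. It had -0.08 at HH25 and 0.03 at HH31. COX7A2, a subunit of cytochrome c oxidase on the same list, and NDUFA4, grouped with complex I by its symbol but known as a subunit of that oxidase too, were above mesenchyme at each stage by small amounts, COX7A2 with 0.09, 0.18 and 0.09 and NDUFA4 with 0.08, 0.04 and 0.03. They were the 2 of 64 genes higher at all stages, whereas 29 of 64 were lower at all stages with all UMIs as the total. Of all 4552 genes tested at every stage, 12.5% were higher and 45.1% lower at each, so that the share of members that were lower was near that of all genes. COX6A1, the complex IV gene with the most UMIs, had 2282 and 2165 CPM, 1695 and 1698 CPM, and 1697 and 1788 CPM, and its log2 ratios lay between -0.07 and 0.08. Of the other genes among the 5 highest of a stage, NDUFA2 and ATP5I at HH29 had 0.05 and 0.04, and these genes and NDUFA4 had replicates on both sides of 0 there.

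The ATP synthase held genes that moved apart from each other. ATP5J, the coupling factor 6, had 1252 CPM in skeletal cells and 1005 in mesenchyme, then 787 and 860, then 1085 and 1003 in the order of the stages, with log2 ratios of 0.32 (0.25 to 0.38), -0.13 (-0.19 to -0.06) and 0.11 (0.04 to 0.18). ATP5O, the oligomycin sensitivity protein, had 0.11, -0.18 and 0.15. ATP5B, the catalytic beta subunit, had -0.13 (-0.22 to -0.05), -0.23 (-0.34 to -0.12) and -0.38 (-0.48 to -0.28), from 785 CPM in mesenchyme and 715 in skeletal cells at HH25 to 573 and 441 at HH31. ATP5B was on the lists of HH25-1 and HH31-9, so its lower values at HH25 and HH31 are in part what chose it.

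ATP5G1, ATP5G2 and ATP5G3 encode the same mature c subunit of the proton-turning ring from 3 loci. How reads were divided among them by the authors' counting was not examined, and near-identical coding stretches make single values uncertain. ATP5G3 had 1939 CPM in skeletal cells and 2871 in mesenchyme, then 1593 and 1817, then 1200 and 1596, with log2 ratios of -0.57 (-0.62 to -0.52), -0.19 (-0.24 to -0.14) and -0.41 (-0.47 to -0.35). ATP5G1 had -0.27, -0.32 and -0.51. ATP5G2 had 956 and 793 CPM, then 515 and 569, then 754 and 692, with ratios of 0.27 (0.19 to 0.34), -0.14 (-0.22 to -0.06) and 0.12 (0.04 to 0.21). At HH25 and HH31 the c-subunit genes thus differed in opposite directions between the same cells. ATP5G1 and ATP5G3 were on the lists of HH25-1 and HH31-9, which are part of the mesenchyme, and ATP5G2 was on neither. The lower values of ATP5G1 and ATP5G3 there are in part what chose them, and the opposite directions rest on this too.

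The share of ATP5G2 among the UMIs of the 3 genes does not depend on the total, though the choice of members bears on it. It was 24.9% in chondrocytes and 16.5% in mesenchyme at HH25, and 30.99% in the early chondrocytes of HH31 against 20.1 to 22.7% in the cycling sub-clusters. At HH29 it was 20.9% in early chondrocytes, 19.9% in joint cells and 15.5% in late chondrocytes, beside 15.1 to 18.1% in mesenchyme. Other tissues reached similar shares. Skin had 25.3% at HH25 and 28.8% at HH31, interdigit 4 of HH31 had 31.8%, and nsCT at HH31 had 29.2%. ATP5G3 had the largest share of the 3 in every sub-cluster, and it was lowest in skin at HH25 and HH31, with 44.9% and 38.1%, and in sub-cluster 14 at HH29, with 47.4%.

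**Figure D3:**
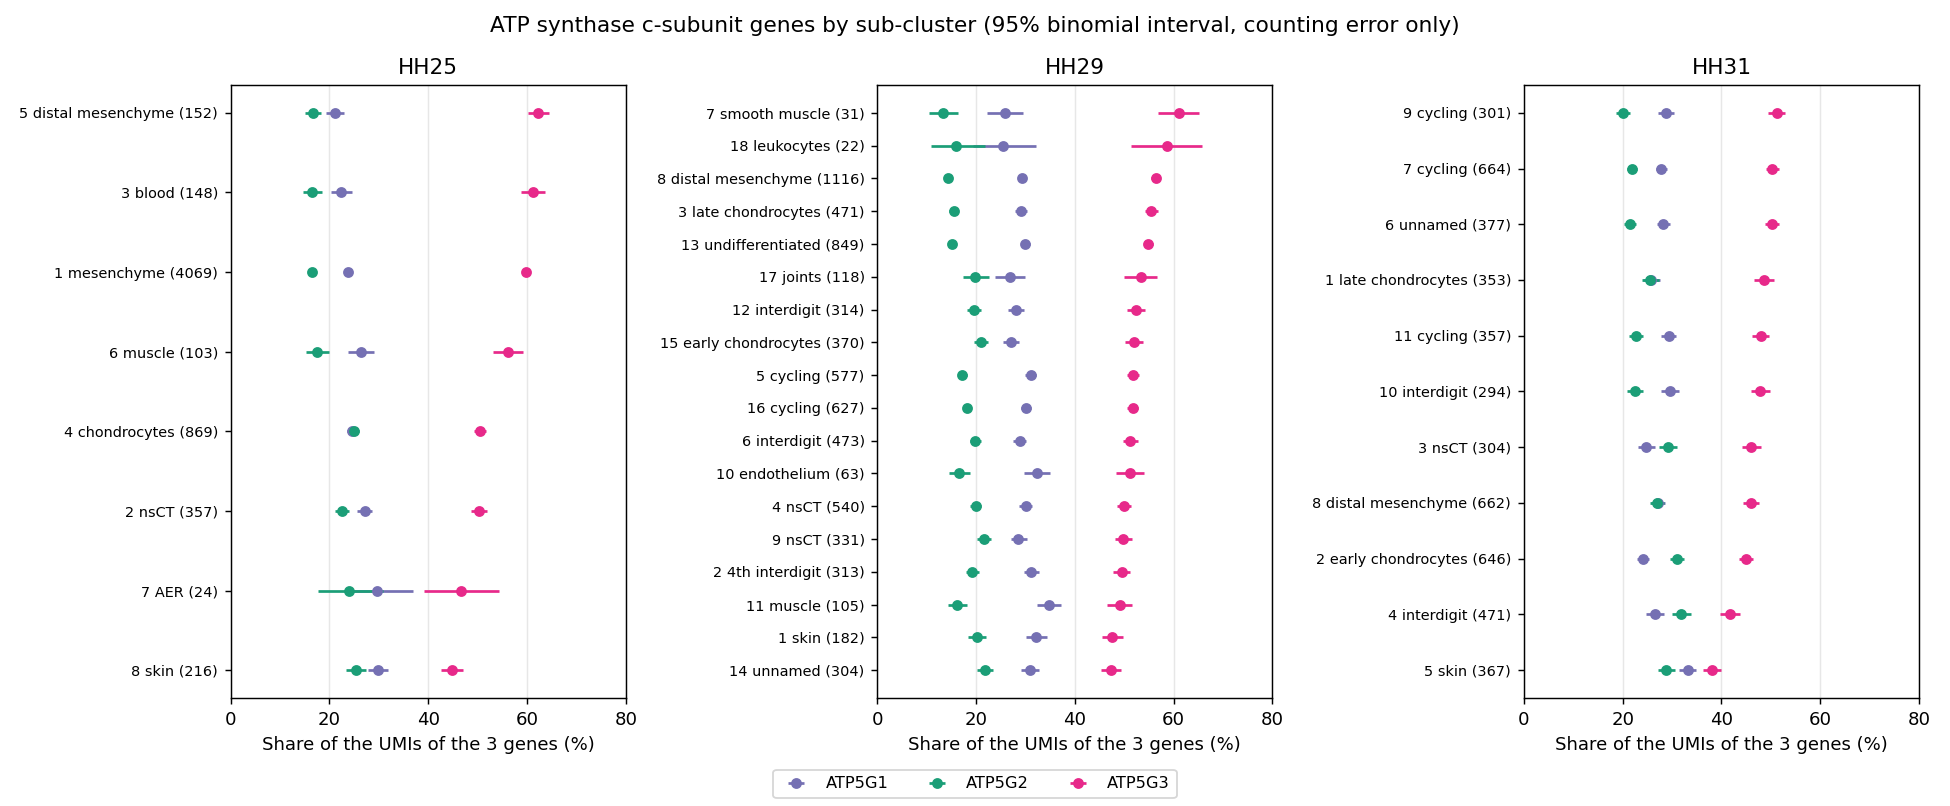
Share (x axis, %) of ATP5G1 (purple), ATP5G2 (green) and ATP5G3 (pink) among the UMIs of the 3 genes in each sub-cluster, sorted by ATP5G3, with exact 95% binomial intervals for counting error and cell numbers in brackets. ATP5G2 goes from 16.5% in mesenchyme to 24.9% in chondrocytes at HH25 and reaches 31.8% in interdigit 4 at HH31. ATP5G1 and ATP5G3, but not ATP5G2, were members through marker lists of mesenchyme at HH25 and HH31.

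The mitochondrial genes behaved differently by stage in the same comparison. Their summed share was 6.42% in skeletal cells and 6.16% in mesenchyme at HH25, a log2 ratio of 0.06 (0.05 to 0.07). It was 2.90% and 3.27% at HH29, with -0.17 (-0.18 to -0.16), and 5.34% and 5.92% at HH31, with -0.15 (-0.16 to -0.14). The HH29 replicates gave -0.20, -0.20 and -0.10. Without ribosomal protein and haemoglobin genes in the total the values were 0.17, -0.14 and 0.06, so that the sign at HH31 turned.

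The sign at HH29 and HH31 came from late chondrocytes and joint cells more than from early chondrocytes. Against mesenchyme the log2 ratio was -0.27 (-0.29 to -0.26) in the late chondrocytes of HH29, 0.02 (0.01 to 0.04) in the early ones and -0.35 (-0.38 to -0.32) in joint cells. At HH31 it was -0.30 (-0.31 to -0.28) in late and -0.07 (-0.08 to -0.06) in early chondrocytes. In the replicates of HH29, late chondrocytes had -0.32, -0.28 and -0.19, joint cells -0.39, -0.34 and -0.33, and early chondrocytes 0.03, -0.03 and 0.09. Late chondrocytes of HH31 stay lower with the shift of 0.21 applied, early chondrocytes do not. The nuclear genes drew no such line between the chondrocytes, with -0.09 in late and -0.12 in early chondrocytes of HH29 and -0.12 and -0.14 in those of HH31, and were low in joint cells, with -0.38 (-0.41 to -0.35).

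Among the mitochondrial genes, MT-CYB (cytochrome b of complex III) and MT-ND2 (complex I) differed most at the later stages, leaving aside the sparse MT-ATP8. MT-CYB was on the lists of HH31-7 and HH31-9, MT-ND2 on that of HH31-9 and MT-ND4 on that of HH31-7. Both sub-clusters are part of the mesenchyme here, so the low ratios of these genes at HH31 are in part what chose them. MT-CYB had 6449 CPM in skeletal cells and 6306 in mesenchyme, then 2900 and 3744, then 4764 and 5945, with log2 ratios of 0.03 (0.00 to 0.06), -0.37 (-0.40 to -0.33) and -0.32 (-0.35 to -0.29). The replicates of HH29 gave -0.39, -0.38 and -0.31. MT-ND2 had 1814 and 1702, 1149 and 1414, and 1383 and 1759 CPM, with 0.09, -0.30 and -0.35, and replicate values of -0.35, -0.30 and -0.22. MT-ND4 had -0.02, -0.19 and -0.31, and ND1 0.03, -0.26 and -0.11. Of the cytochrome c oxidase genes, COX3 had 0.07, -0.15 and -0.07, MT-CO1 0.01, -0.09 and -0.18, and MT-CO2 -0.02, -0.17 and -0.21. ATP6 had 0.21, -0.11 and -0.09. MT-ND3 was the 1 gene not lower at HH31, with 2024 and 1765 CPM for HH25 (0.20), 644 and 667 for HH29 (-0.05) and 2786 and 2636 for HH31 (0.08). The 10 genes of 1 circular genome thus did not keep 1 ratio between skeletal and mesenchymal cells.

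**Figure D4:**
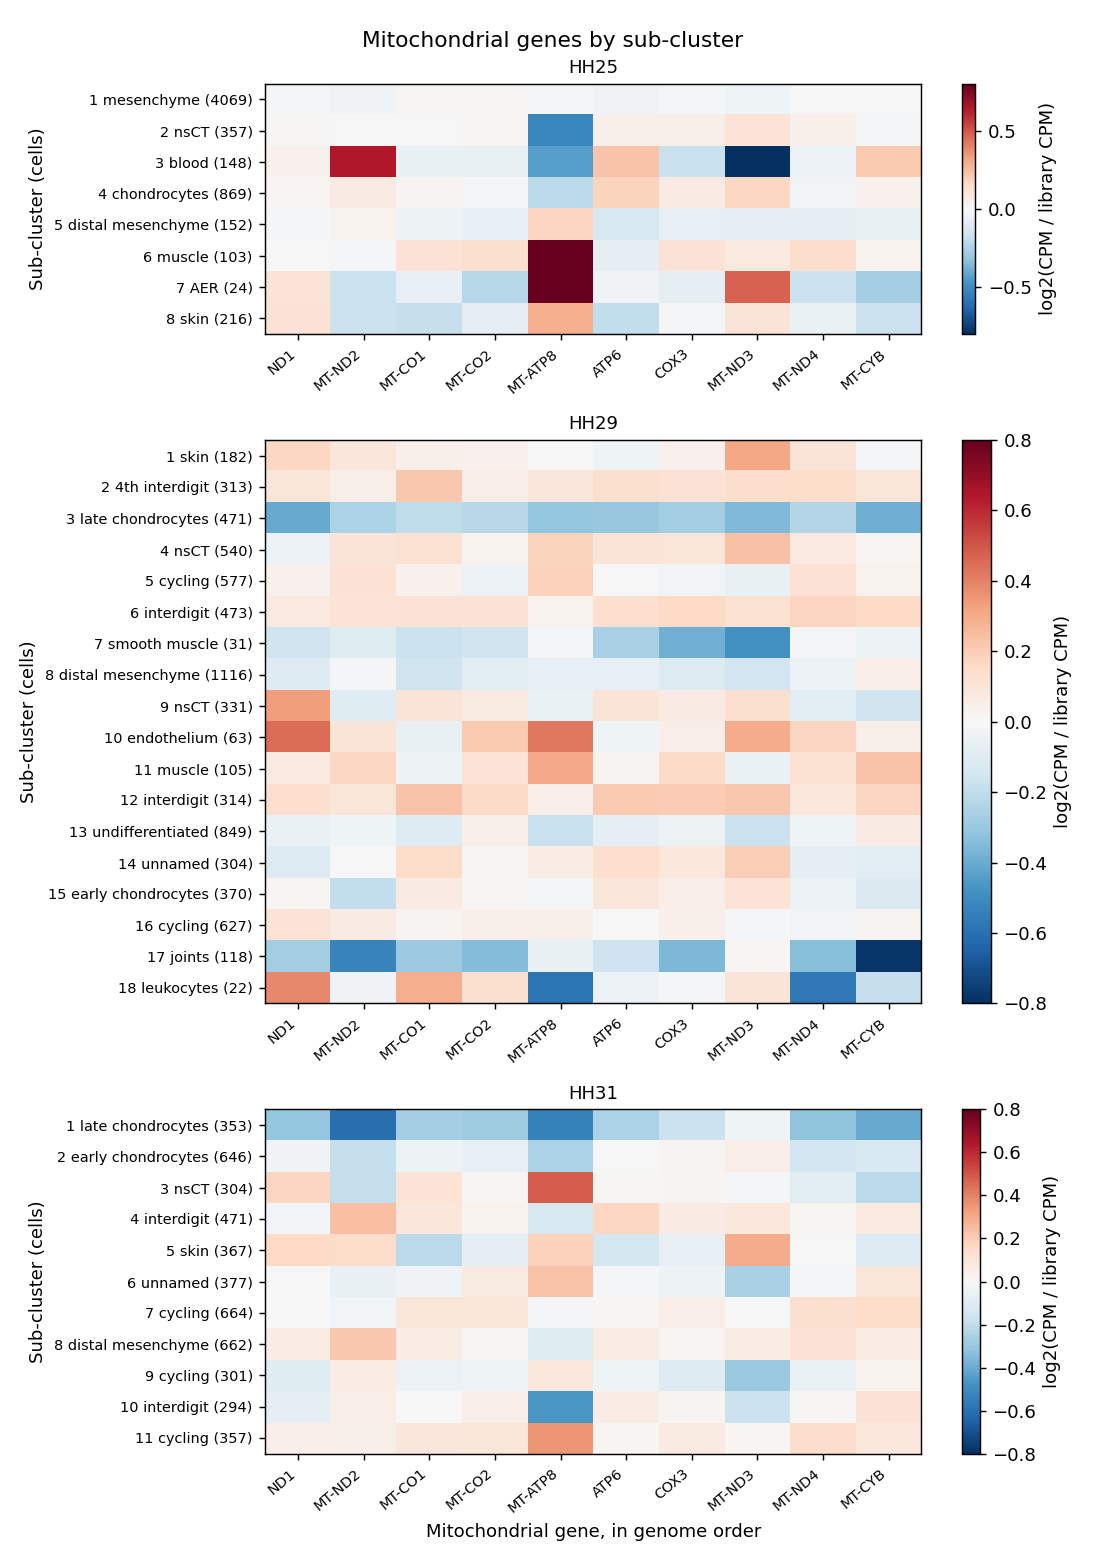
Log2 of the CPM of each mitochondrial gene in a sub-cluster over its CPM in the whole library (color), with genes in genome order (x axis) and sub-clusters with their cell numbers (y axis). The color scale ends at 0.8 in either direction. Late chondrocytes are below the library in all 10 genes at HH29 and HH31, blood at HH25 is high in MT-ND2 and low in MT-ND3, and MT-ATP8 rests on few UMIs at HH25 and HH31 (123 and 222).

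Blood cells of HH25 had a mixture of mitochondrial transcripts unlike that of the other populations, at nearly the same summed share (6.18% against 6.16% in mesenchyme). MT-ND2 stood at 2712 CPM in blood and at 1702 CPM in mesenchyme, and MT-ND3 at 1038 and 1765 CPM. MT-ND2 was on the list of these blood cells (HH25-3), so its high value there is in part what chose it. ATP6 and MT-CYB were higher, with 10005 against 8365 CPM and 7277 against 6306 CPM, and COX3 was lower, with 14169 against 15910 CPM. In the nuclear genes 7 of 61 tested were higher and 25 lower in blood than in the rest of the library, where 37.3% of 1458 genes were higher and 20.0% lower, with median log2 ratios of -0.16 for the members and 0.14 for all genes. The rest of the library held HH25-1, whose list named 25 of the 66 nuclear genes. The lower count in blood is therefore in part what chose the members, and nothing further is read from it. NDUFAB1, too sparse to be among the 61 genes tested, had 2 UMIs (6.57 CPM, 0.80 to 23.7) beside 56.7 CPM in mesenchyme. Haemoglobin genes took 1.70% of the UMIs of these 148 cells and 0.02 to 0.04% of those of the other HH25 sub-clusters.

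MT-ATP8 and ATP6 overlap in the chicken mitochondrial genome, as do ATP6 and COX3 by the RefSeq annotation of the assembly GRCg7b, and reads there cannot be told apart with certainty. MT-ATP8 had 8.93, 216 and 16.7 CPM in HH25, HH29 and HH31, while ATP6 had 8538, 4105 and 8539 CPM. The Drop-Seq library was the high one for MT-ATP8 and the low one for ATP6.

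Across HH29, the members with the greatest range of CPM over sub-clusters of at least 100 cells included 2 that were too sparse to read. ATP5SL went from 0 UMIs in joint cells, which allows up to 8.18 CPM, to 4.38 CPM (8 UMIs) in late chondrocytes, and COX5B from 3.50 CPM (4 UMIs) in early chondrocytes to 12.8 CPM (14 UMIs) in the 4th interdigit. The others were well counted. SDHA ranged from 64.7 CPM (47.7 to 85.8) in skin to 159 CPM (145 to 175) in undifferentiated mesenchyme. UQCRH ranged from 286 CPM (234 to 347) in joint cells to 679 CPM (649 to 710) in undifferentiated mesenchyme. ATP5B ranged from 191 CPM (149 to 241) in joint cells to 444 CPM (385 to 509) in muscle. Undifferentiated mesenchyme and muscle thus stood at the top and joint cells or skin at the bottom of these ranges. SDHB, the complex II gene with the most UMIs, had 182 and 196 CPM in skeletal cells and mesenchyme of HH25, 327 and 381 in those of HH29 and 142 and 174 in those of HH31.

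Other genes of mitochondria and of energy metabolism were set beside the members from fixed lists of names. Only genes named on the marker or module lists of the study could be found, so levels in these same cells in part chose them too. Of 12 named glycolysis genes in the tables, 8 were past the limit downward in skeletal cells at HH25 and 0 upward, with a median log2 ratio of -0.53. At HH29 11 were higher and 0 lower, with a median of 0.53, and at HH31 6 were higher and 0 lower, with 0.32. In the replicates of HH29 the median was 0.52, 0.50 and 0.47. Of all genes, 12.6%, 19.3% and 11.7% were higher and 38.8%, 21.8% and 47.5% lower at HH25, HH29 and HH31. PGK1, a kinase that makes ATP in glycolysis, had 219.8 CPM in skeletal cells and 452 in mesenchyme (-1.04), then 755 and 582 (0.38), then 330.2 and 304 (0.12). ALDOC, an aldolase, had 267 and 445 CPM, 322 and 186 CPM, and 439 and 276 CPM (-0.74, 0.79 and 0.67). GAPDH had 6192 and 5254 CPM, 6635 and 4706 CPM, and 6228 and 4981 CPM, and was higher at each stage (0.24, 0.50 and 0.32). Because GAPDH held most of the glycolysis UMIs, the sum of the 12 genes did not differ at HH25 (-0.01, -0.03 to 0.02) although its median was low. By sub-cluster the summed glycolysis ratio was 0.52 (0.50 to 0.54) in late chondrocytes, 0.44 (0.42 to 0.47) in early chondrocytes and 0.65 (0.61 to 0.69) in joint cells of HH29, and 0.54 (0.51 to 0.57) and 0.14 (0.12 to 0.17) in late and early chondrocytes of HH31. In joint cells and late chondrocytes glycolysis genes were thus above and mitochondrial genes below mesenchyme with all UMIs as the total. Outside ribosomal protein and haemoglobin genes, the mitochondrial share of the late chondrocytes of HH31 was 9.23%. It was 10.15%, 8.48% and 10.05% in the cycling cells of HH31-7, HH31-9 and HH31-11, so the difference at HH31 was small by that total.

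**Figure D5:**
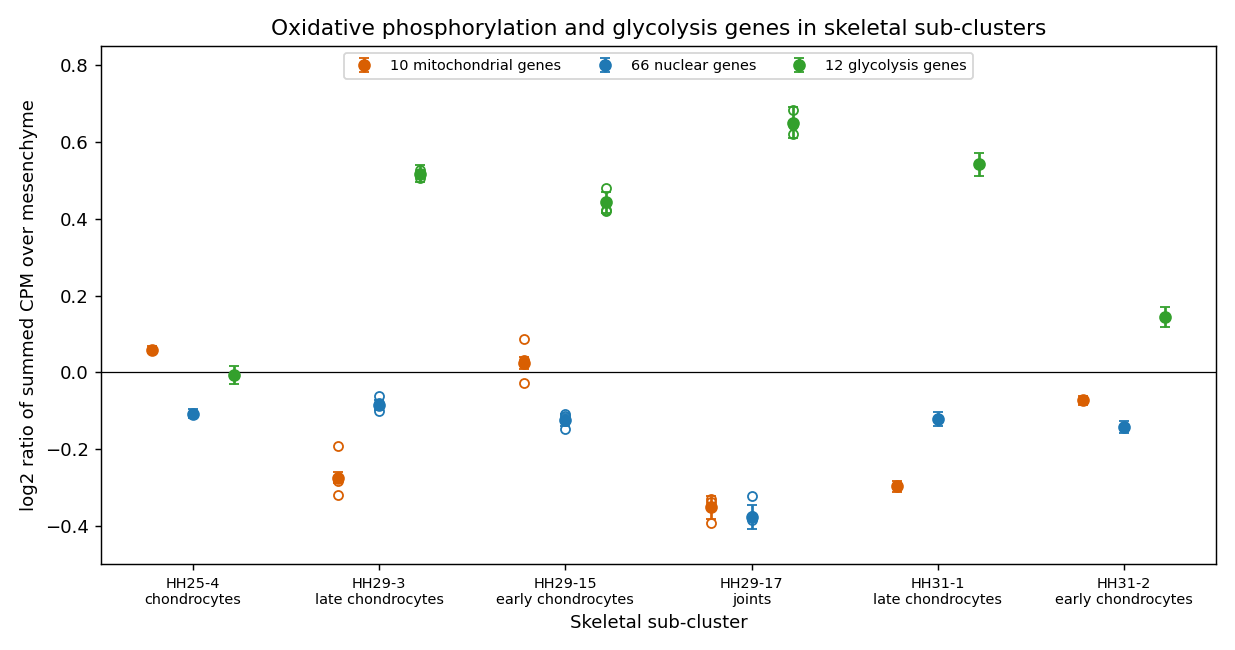
Log2 ratio of summed CPM of a skeletal sub-cluster over the mesenchyme of its stage (y axis) for mitochondrial (orange), nuclear (blue) and glycolysis genes (green), with 95% intervals for counting error and the 3 technical replicates of HH29 as open circles. Joint cells have 0.65 for glycolysis genes and -0.35 and -0.38 for the mitochondrial and nuclear genes.

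Mitochondrial ribosome proteins (50 genes) had median log2 ratios of -0.38, -0.17 and -0.41, and 26, 11 and 33 of the 50 past the limit downward beside 2, 0 and 2 upward. The median of all genes was -0.19, -0.05 and -0.30, with 38.8%, 21.8% and 47.5% of all genes lower, and at HH29 the count of this list was near that share. Import and carrier genes had medians of -0.27, -0.01 and -0.17 over 19, 20 and 19 genes. Of further oxidative phosphorylation genes that the rule did not take, CYCS (cytochrome c) had -0.59, -0.15 and -0.56 and TFAM, the factor that packages and transcribes mitochondrial DNA, -0.41, -0.10 and -0.53. The alpha subunit of the ATP synthase had -0.14, -0.35 and -0.36, close to ATP5B. ND6, the mitochondrial gene on the opposite strand, had 0.40, 0.01 and -0.16.

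Finally, mesenchymal cells were split by the deposited G2M score, a number between 0 and 1 that the authors computed from pairs of cell cycle genes. Cells with a score of at least 0.5 had a nuclear share of 4.12% (4.10 to 4.13) against 4.28% (4.26 to 4.30) in the others at HH25, and in the later stages 3.09% against 3.26% and 3.13% against 3.30%. The mitochondrial share was 6.22% against 6.09%, 3.34% against 3.15% and 5.95% against 5.79%. Of the mesenchymal cells, 2462 of 4069, 1446 of 2053 and 1187 of 1322 had a score of at least 0.5, and no phase of the cell cycle is read from it. These cells had slightly less of the nuclear and slightly more of the mitochondrial transcripts at each stage. They also had fewer UMIs, with medians of 1863 against 2430, 2740 against 3776 and 2566 against 3926, and the part of depth in these differences was not tested.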

How the data were processed

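The authors deposited 1 table of raw UMI counts per gene and cell for each stage, made with Cell Ranger (version 2) for HH25 and HH31 and with the Drop-Seq pipeline for HH29, on Gallus_gallus-5.0. The deposited tables also hold S and G2M cell cycle scores (fraction values between 0 and 1 that the authors computed with scran) and cluster numbers, made by the authors on values from which library size and the mitochondrial fraction had been regressed. Of the stated limits, those of over 4 times the mean UMIs, under 20% of the median and over 10% mitochondrial were applied again. With the 10 mitochondrial members as the mitochondrial list, this left 5938 of 5982, 6806 of 6823 and 4796 of 4823 barcodes. With ND5 and ND6 added the mitochondrial limit would remove 192, 0 and 235 barcodes in place of 42, 0 and 22. The authors also state a limit of 10% for the ribosomal contribution, which was not applied. Ribosomal protein genes took 35.5%, 18.02% and 43.4% of the UMIs of the cells kept. No doublet caller was run.

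UMIs were summed over the cells of a sub-cluster and divided by all UMIs (CPM or percent). Sums have exact 95% Poisson intervals and ratios exact conditional binomial intervals, with no test, because cells of 1 library are not replicates. Levels refer to 3′ end counts. A gene entered a count of genes with at least 25 expected UMIs in the smaller group, and the limit was a CPM 25% above or 20% below the other group. The ratio and its interval were tested on simulated data. Named genes were all mitochondrial members, the gene with the most UMIs of each complex, per stage the 5 genes with the highest and the 5 with the lowest skeletal ratio (100 UMIs or more in the group with more), the 5 with the greatest range at HH29, and the ATP5G paralogs; genes named outside this rule (NDUFAF1 to NDUFAF8 as members, COX5A, blood and platform examples, and those of the other lists) were chosen after their values were seen. Members and lists were chosen with earlier results of these data known. Alternatives were all barcodes, other totals, cell means, cells of middle depth, other filters and folds, and leaving out each HH29 replicate. Python 3.11.15, numpy 2.4.6, pandas 2.3.3, scipy 1.17.1 and matplotlib 3.10.9 were used.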

Additional observations from a re-analysis of the deposited data

Results flagged for a closer look

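Some log2 ratios of skeletal over mesenchymal cells had opposite signs at different stages, with intervals for counting error on both sides of 0. Each stage is 1 library, so that the difference between stages was not tested, and stage cannot be told apart from platform and dissection. The mitochondrial genes together had 0.06 at HH25, -0.17 at HH29 and -0.15 at HH31. MT-CYB had 0.03, -0.37 and -0.32, MT-ND2 0.09, -0.30 and -0.35, ATP6 0.21, -0.11 and -0.09, and COX3 0.07, -0.15 and -0.07. MT-CYB and MT-ND2 were on lists of the HH31 mesenchyme, so their values at HH31 are in part what chose them. In the nuclear genes, ATP5G2 had 0.27 at HH25 and 0.12 at HH31 but -0.14 at HH29, ATP5J 0.32 and 0.11 but -0.13, and ATP5O 0.11 and 0.15 but -0.18. COX6A1 had 0.08 at HH25 and -0.07 at HH31. NDUFB10 had 0.20 at HH25 and -0.12 at HH29, NDUFS4 0.29 and -0.25, and NDUFS8 0.24 and -0.20. Values of HH31 between -0.21 and 0 turn positive when ribosomal protein and haemoglobin genes leave the total, which holds for ATP6, COX3 and COX6A1 and for the mitochondrial sum, and not for MT-CYB or MT-ND2.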

How the results depend on the processing

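With ribosomal protein and haemoglobin genes left out of the total, the skeletal over mesenchyme log2 ratio of the nuclear genes was 0.0024, -0.092 and 0.071 at HH25, HH29 and HH31, and that of the mitochondrial genes 0.17, -0.14 and 0.056, so that 3 signs turned (nuclear at HH25 and HH31, mitochondrial at HH31). The nuclear contrasts of the extreme sub-clusters became 0.36 (HH25-2 over HH25-8), 0.44 (HH29-13 over HH29-17) and 0.40 (HH31-6 over HH31-4), and the mitochondrial ones 0.0086 (HH25-6 over HH25-8) and 0.37 (HH31-4 over HH31-1). Against the rest of the library, HH25-2 had 0.11, HH25-8 -0.26, HH29-13 0.18, HH29-17 -0.29, HH31-6 0.21 and HH31-4 -0.22. Nuclear genes past the limit in skeletal cells were 6 higher and 10 lower at HH25 and 3 and 5 at HH31. In all these the cause is the construction of the total. For cells between the 25th and 75th percentile of UMIs the mitochondrial ratio was 0.034, -0.16 and -0.19, the nuclear ratio of HH29 -0.15, and 4 genes were higher at HH25. As a mean of the cells' shares, the mitochondrial ratio was 0.043 at HH25 and -0.16 at HH31 and the nuclear ratio -0.15 at HH31; the cause was not tested. A limit of 1.5-fold left 0, 0 and 0 genes higher and 4, 0 and 3 lower. No share of all genes is given beside these counts or beside the 4 genes at middle depth, so nothing about the members is read from them. Leaving out 1 technical replicate of HH29, the mitochondrial ratio lay between -0.19 and -0.16, and that of HH29-12 over HH29-17 between 0.52 and 0.57.

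All deposited barcodes (24 values), at least 100 expected UMIs (6) and no filter (6) changed no direction, and counts stayed within 1.5 times. The denominator change and all barcodes against the rest of the library were added after the data were seen. Further nuclear genes from a gene name table were planned and not run. No paired analysis was possible because each stage is 1 library. Genes under about 25 expected UMIs in the smaller group cannot be compared at this depth.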
